A study of Mus musculus with 17 samples.

Results

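The 83 genes described here encode the proteins of the cytosolic ribosome in mouse macrophages. They were chosen by name, annotation and a minimum count: protein-coding genes with a symbol of the Rpl, Rps, Rplp or Rpsa type, without the Rps6 kinases, Rps19bp1 and pseudogenes, and with a mean of at least 20 counts over the 17 libraries. Of the 55401 genes in the table, 85 had such a symbol. The paralogues Rpl10l and Rpl3l, with means of 0 and 2.47 counts, were under the minimum. Of the 83 genes, 33 encode proteins of the small 40S subunit and 50 encode proteins of the large 60S subunit, the acidic stalk proteins Rplp0, Rplp1 and Rplp2 included. A few of the 50 are paralogues with other or tissue-restricted roles, such as Rpl7l1, which acts in assembly of the large subunit.

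Ribosomal proteins join ribosomal RNA in the nucleolus to build the small subunit, which reads the mRNA, and the large subunit, which joins amino acids. Their mRNAs are short and abundant, and many begin with a C followed by a run of pyrimidines. This start, the terminal oligopyrimidine (TOP) motif, places translation of these mRNAs under the growth-regulating kinase complex mTORC1 and the RNA-binding protein LARP1.

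Total RNA of bone marrow-derived macrophages, which are grown in culture from mouse marrow, was sequenced in 6 groups. The knockout group (3 libraries, strain Lyz2-Cre-Kcnj2f/f) and the floxed group (3 libraries, Kcnj2f/f) were both in conditioned medium of B16F10, a mouse melanoma line, with KCl labelled isotonic. Kcnj2 codes for a potassium channel, the inward rectifier Kir2.1, and the Lyz2 locus drives Cre in myeloid cells. The other 4 groups were C57BL/6J cells: conditioned medium with KCl (3 libraries), conditioned medium with NaCl (2 libraries), conditioned medium alone (3 libraries) and control (3 libraries). Treatment lasted 6 hours and each added salt was at 40 mM at the end; what the control cells received, the salt level of the isotonic medium and the age of the mice are not stated. The labels do not say whether the libraries of a group were separate mice or cultures. The p-values below thus describe the spread among these libraries, which may be technical.

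Libraries held 13503869 to 19391623 counts. Kcnj2 was at 20, 24.8 and 30 CPM in the knockout libraries, against 172, 140 and 149 CPM in the floxed libraries. CPM is the count as a rate of the library total, scaled by TMM, a factor per library that sets most genes level. Of the macrophage markers, Lyz2 was at 7320 to 8530 CPM in knockout and 19700 to 24600 CPM in floxed cells, while the other 6 markers summed to 3490 to 4530 CPM in knockout and 3070 to 5230 CPM in floxed cells. With KCl the same 6 markers summed to 2690 to 4230 CPM, against 4500 to 4690 CPM with NaCl, 4660 to 5000 CPM in conditioned medium and 3590 to 4150 CPM in control. The 6 fibroblast and stroma markers summed to 169 to 234 CPM in knockout and 238 to 476 CPM in floxed cells, and to 270 to 449 CPM with KCl, against 459 to 517 CPM with NaCl, 477 to 523 CPM in conditioned medium and 553 to 701 CPM in control. Both sums were thus lower with KCl than with NaCl or in conditioned medium, with no overlap. Of 6 melanoma markers Tyr and Dct had 0 counts in every library, and the sum of the 6 was 147 to 172 CPM in knockout, 140 to 208 CPM in floxed, 159 to 213 CPM with KCl, 223 to 237 CPM with NaCl, 178 to 183 CPM in conditioned medium and 69.1 to 73.7 CPM in control. The part of these markers in the results below was not tested. Libraries of a group were less alike in the KCl media. The chi-square per degree of freedom between libraries of 1 group was 5.95 to 37.3 in knockout, 27.6 to 146 in floxed and 31.5 to 98.6 in KCl cells, against 2.08 to 5.83 in the control, conditioned medium and NaCl groups. In bulk RNA a change in the mix of cells cannot be told apart from a change in RNA per cell.

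The starts of 8 genes named below are shown. Rpl35a and Rplp2 had some of the largest increases with KCl, Rpl38 and Rps6 also rose, and Rpl15, Rpl4, Rpl10a and Rpl7l1 did not rise. Rpl38 and Rpl4 were picked after their values were seen. The 50 bases run from 20 before an annotated start to 30 from it (RefSeq, GRCm38.p6). Where several starts are listed (3 for Rpl35a and 2 for Rpl10a), the start with the longest run is shown. Capitals mark the longest run of pyrimidines that begins with a C within 20 bases of the start. The run must hold at least 5 pyrimidines after that C.
Rpl35a (chr16:33056462-33056511, + strand): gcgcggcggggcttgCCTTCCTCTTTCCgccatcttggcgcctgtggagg
Rplp2 (chr7:141447631-141447680, + strand): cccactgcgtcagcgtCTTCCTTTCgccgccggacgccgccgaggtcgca
Rpl38 (chr11:114668560-114668609, + strand): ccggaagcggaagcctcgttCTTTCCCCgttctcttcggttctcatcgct
Rps6 (chr4:86857338-86857387, - strand): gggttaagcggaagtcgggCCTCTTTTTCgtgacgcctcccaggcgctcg
Rpl15 (chr14:18270957-18271006, - strand): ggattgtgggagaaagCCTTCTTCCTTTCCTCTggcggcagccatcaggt
Rpl4 (chr9:64173367-64173416, + strand): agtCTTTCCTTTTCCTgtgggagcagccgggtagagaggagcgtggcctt
Rpl10a (chr17:28328545-28328594, + strand): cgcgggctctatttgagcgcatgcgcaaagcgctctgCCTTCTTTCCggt
Rpl7l1 (chr17:46782627-46782676, - strand): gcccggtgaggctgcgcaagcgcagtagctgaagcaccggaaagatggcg

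Such a run was found in 43 of the 63 genes with a promoter entry (68.3%), against 9680 of 26962 other genes (35.9%). The 7-base motif CCGGAAG, an ETS-type element searched on both strands from 250 bases before to 50 after the start, was in 26 of the 63 (41.3%) and in 2657 of the other genes (9.9%). The YY1-type motif ATGGCGG, searched the same way, was in 11 of the 63 (17.5%) and in 1257 of the other genes (4.7%). Rpl15 and Rpl4, which did not rise with KCl, carry runs of 17 and 13 pyrimidines, and Rpl35a, with the largest increase, carries a run of 13. Relative to the annotated start, the Rpl4 run begins at −17 and lies wholly before it. The runs of Rpl10a, Rpl15 and Rpl35a begin at 17, −4 and −5 from the starts shown. Rpl7l1 has none in this window. The median log2 fold change with KCl was 0.97 in the 43 genes with such a run and 0.92 in the 20 without. Such a run may begin anywhere within 20 bases of any listed start, and 35.9% of other genes have one. This split is therefore not one of TOP against other mRNAs, and the part of the TOP start was not tested.

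The 83 genes together took a larger share of all counts in most libraries of the KCl media. In the knockout libraries 1, 2 and 3 they held 3.85%, 3.71% and 2.66% of counts, against 2.01%, 4.49% and 3.47% in the floxed libraries. With KCl in C57BL/6J cells the share was 3.88%, 4.73% and 2.94%, and with NaCl it was 2.28% and 2.08%. In conditioned medium alone it was 2.38%, 2.26% and 2.13%, against 2.94%, 3.01% and 2.63% in control. All 3 KCl libraries were thus above the NaCl and conditioned medium libraries, KCl library 3 lay within the control range, and floxed library 1 lay below every library of the other groups. As group means the share was 3.41% ± 0.650 in knockout, 3.32% ± 1.25 in floxed, 3.85% ± 0.898 with KCl, 2.18% ± 0.138 with NaCl, 2.26% ± 0.122 in conditioned medium and 2.86% ± 0.202 in control (SD, n = 3 each and n = 2 for NaCl). Small and large subunit genes moved together, and the ratio of 60S to 40S counts stayed between 1.11 and 1.21 over the 17 libraries.

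**Figure D1:**
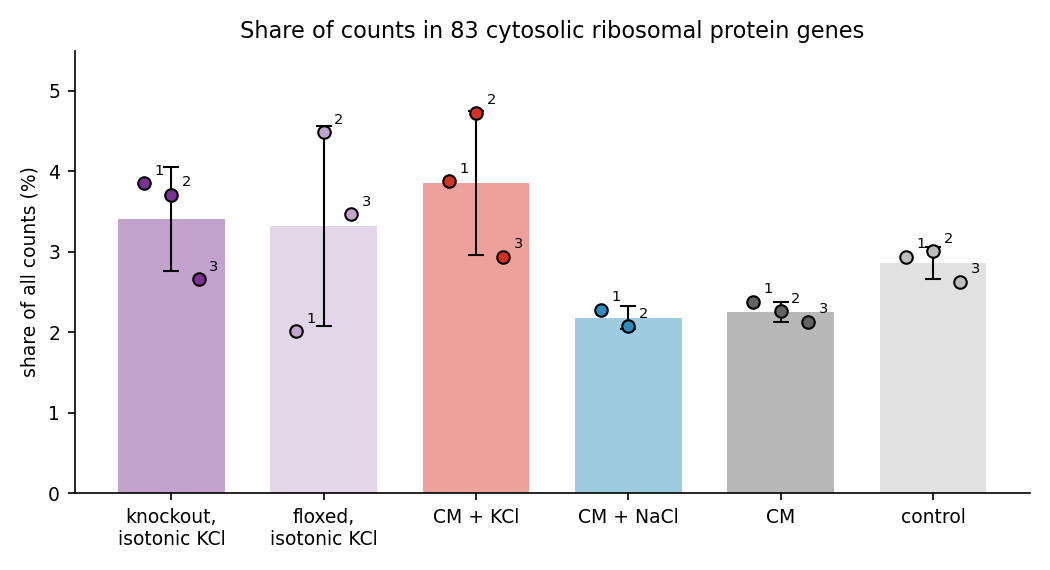
Share of all counts (percent, vertical axis) held by the 83 genes in each library, by group; CM is conditioned medium, bars are group means, error bars are SD and the numbers beside the points are library numbers. The KCl libraries (3.88%, 4.73% and 2.94%) lie above those of NaCl and conditioned medium, and floxed library 1 (2.01%) lies apart from floxed libraries 2 and 3.

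KCl in conditioned medium went with higher levels of nearly all ribosomal protein genes. Against conditioned medium alone, 76 of the 83 rose, 1 fell and 6 did not pass (edgeR quasi-likelihood test, Benjamini-Hochberg adjusted p under 0.05 over all 14519 genes tested). Over all genes, 26.6% were called higher and 27.4% lower. The median log2 fold change of the 83 was 0.96, a 1.94-fold difference, with quartiles of 0.68 and 1.16, against a median of −0.01 over all genes tested. All 33 genes of the 40S subunit rose (median 0.99), and 43 of the 50 genes of the 60S subunit did (median 0.89). In 74 of the 83 every KCl library was above every conditioned medium library, and 36 rose by at least 1 on the log2 scale. These 2 counts were not made for all genes, so neither can be read as particular to the ribosomal protein genes. By a looser measure, single KCl libraries had 39.9% to 41.1% of all genes above every conditioned medium library. With the length slope of each library, described further on, as a covariate, 46 of the 83 rose and 1 fell (median 0.36), against 19% of all genes higher and 20.2% lower. Every KCl library had a lower slope than every conditioned medium library, so salt and slope cannot be told apart in this fit. The sums of macrophage markers other than Lyz2 and of stroma markers were lower with KCl, while Lyz2 overlapped between the groups, as given above.

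The largest increase was in Rpl35a, a large subunit protein. It had 398, 835 and 229 CPM in the KCl libraries, against 137, 124 and 113 CPM in conditioned medium. The groups did not overlap, KCl library 2 was highest, and on the log2 scale the fold change and its SE were 1.99 ± 0.38 (edgeR, adjusted p = 0.0012). Rps21, a protein of the small subunit, followed with 394, 748 and 243 CPM with KCl and 151, 137 and 130 CPM in conditioned medium (log2 fold change 1.75 ± 0.33, adjusted p = 0.0013). Rpl41, the shortest of all ribosomal proteins, had 733, 1326 and 526 CPM with KCl and 310, 270 and 269 CPM in conditioned medium (log2 fold change 1.62 ± 0.28, adjusted p = 7e-04). With the length slope as a covariate none of the 3 passed, at 0.60 for Rpl35a (adjusted p = 0.27), 0.52 for Rps21 (0.25) and 0.66 for Rpl41 (0.12) on the log2 scale. These 3 genes had the same order of libraries, as most others did: KCl library 2 was highest in 61 of the 83 genes and KCl library 3 was lowest in 73.

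The stalk of the large subunit, which recruits translation factors, is built from Rplp0 and the small acidic proteins Rplp1 and Rplp2, and its genes moved by unequal amounts. Rplp1 had 1908, 3392 and 1142 CPM with KCl and 698, 648 and 605 CPM in conditioned medium (log2 fold change 1.74 ± 0.31, adjusted p = 0.00089). Rplp2 had 1018, 1908 and 570.0 CPM with KCl and 398.0, 343 and 329 CPM in conditioned medium (1.73 ± 0.35, adjusted p = 0.0018). Rplp0 had 1591, 1544 and 1333 CPM with KCl and 1034, 966 and 934 CPM in conditioned medium (0.62 ± 0.08, adjusted p = 3.9e-05). All 3 rose, but the ratio of Rplp1 to Rplp0 CPM was 1.20, 2.20 and 0.857 with KCl, against 0.676, 0.671 and 0.648 in conditioned medium. The ratio was thus above conditioned medium in each KCl library, most so in library 2. With the slope as a covariate Rplp1 and Rplp2 were at 0.60 (adjusted p = 0.18) and 0.42 (0.37) and did not pass.

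Genes of the small subunit rose by log2 fold changes of 0.45 to 1.75. Rpsa, the laminin receptor protein of the small subunit, had 1378, 1908 and 809 CPM with KCl and 696, 647 and 612 CPM in conditioned medium (1.08 ± 0.24, adjusted p = 0.0029). Rps3, which lines the entry of the mRNA channel, had 1029, 959 and 1002 CPM with KCl and 671, 642 and 596 CPM in conditioned medium (0.66 ± 0.08, adjusted p = 1.4e-05). Rps6, the substrate of S6 kinase, had 20.6, 17.9 and 17.9 CPM with KCl and 12.6, 15 and 13.6 CPM in conditioned medium (0.46 ± 0.11, adjusted p = 0.0024). Rps3 and Rps6 were nearly level over the KCl libraries, unlike Rpsa, which was at 0.20 with the slope as a covariate (adjusted p = 0.51). Rps6 missed the threshold of the edgeR test with total counts (0.25, adjusted p = 0.071). It also missed it with a length curve as an offset, described further on (0.20, adjusted p = 0.17). Rps20 (log2 fold change 1.01) and Rps26 (0.68), near the mRNA path, also rose. Rps27a, made as a fusion with ubiquitin, had 71.6, 80.2 and 28.1 CPM with KCl and 30.8, 30.8 and 24.3 CPM in conditioned medium. Its groups overlapped through KCl library 3, although it passed (1.08 ± 0.31, adjusted p = 0.014).

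In the large subunit, Rpl5 and Rpl11, which bind the 5S ribosomal RNA and can inhibit the p53 ligase Mdm2, both rose. Rpl5 had 26.1, 22.6 and 20.5 CPM with KCl and 16.8, 19 and 16.8 CPM in conditioned medium (0.40 ± 0.11, adjusted p = 0.0084). Rpl11 had 319, 317 and 237 CPM with KCl and 201, 180 and 170 CPM in conditioned medium (0.67 ± 0.12, adjusted p = 0.00036). Rpl13a, known for a role in silencing inflammatory mRNAs in human monocytes, had 727, 833 and 516 CPM with KCl and 360, 320 and 298 CPM in conditioned medium (1.10 ± 0.15, adjusted p = 6.7e-05). None of these 3 overlapped between the groups, and Rpl5 was at 0.20 with the slope as a covariate (adjusted p = 0.32).

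The 7 genes that did not rise with KCl are all of the large subunit, and each has a coding sequence over 600 bases. Rpl15, which lies deep in the large subunit, was the 1 gene that fell. It had 33.6, 36.9 and 29.8 CPM with KCl and 47.7, 44.8 and 39.2 CPM in conditioned medium (−0.38 ± 0.10, adjusted p = 0.0071). Rpl3, a protein near the site of peptide bond formation, had 236, 175 and 235 CPM with KCl and 250, 240 and 253 CPM in conditioned medium; all KCl libraries were lower, and the test did not pass (−0.19 ± 0.09, adjusted p = 0.093). Rpl10a was at −0.12 ± 0.10 and Rpl7l1 at −0.03 ± 0.07. Rpl10, which is added late in assembly, was at 0.05 ± 0.09, and Rpl4 and Rpl7a, picked after their values were seen, were at 0.08 ± 0.07 and 0.17 ± 0.09 on the log2 scale. Rpl4 had 793, 704 and 865 CPM with KCl and 758, 755 and 735 CPM in conditioned medium, so that its level in KCl library 2 was the lowest of the 6 while that of Rpl35a was the highest.

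**Figure D2:**
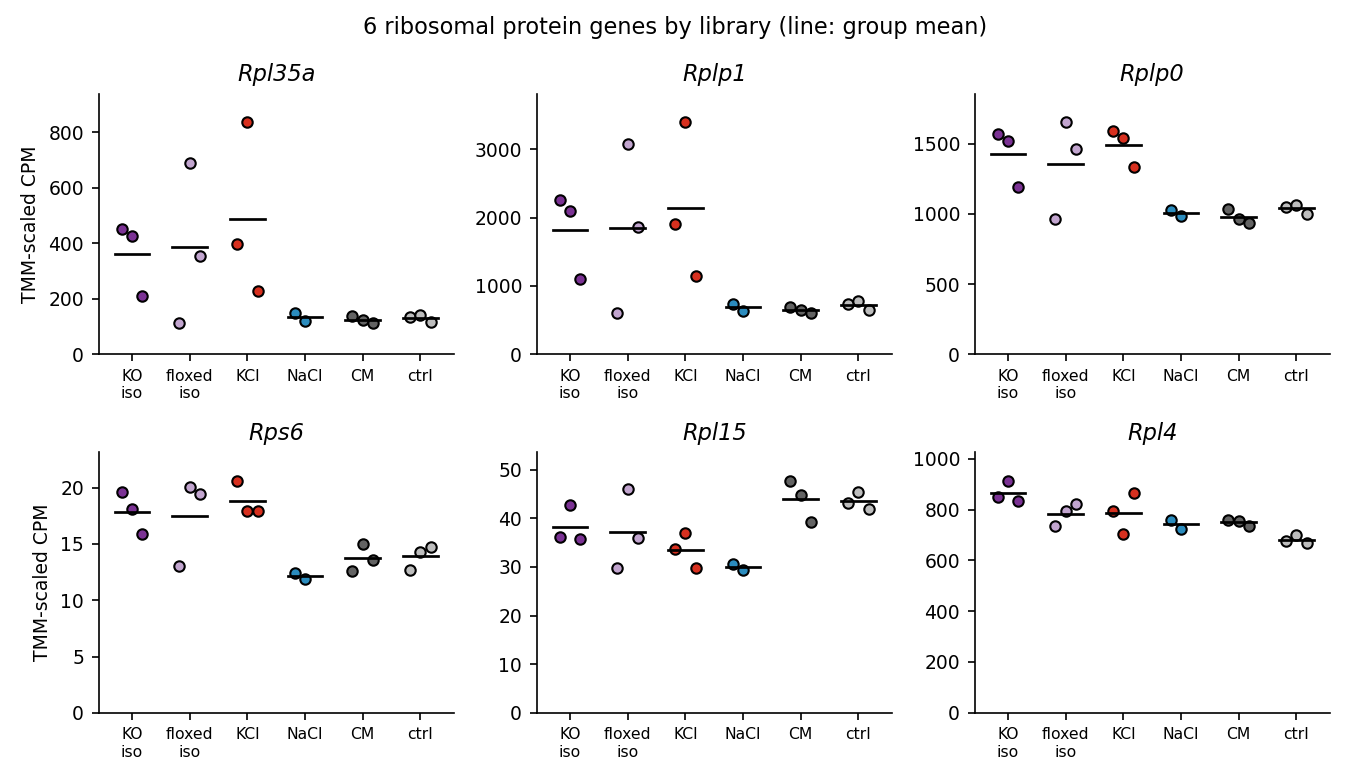
TMM-scaled CPM (vertical axes, from 0) of Rpl35a, Rplp1, Rplp0, Rps6, Rpl15 and Rpl4 in each library, with lines at group means; KO iso and floxed iso are the isotonic KCl groups, CM is conditioned medium and ctrl is control. Rpl35a and Rplp1 are highest in KCl library 2 (835 and 3392 CPM), and Rpl15 is lower with KCl and NaCl than in conditioned medium. Rpl4 differs little between KCl and conditioned medium (means of 787 and 749 CPM), and is highest in knockout (865 CPM) and lowest in control (682 CPM).

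Paralogue pairs rose together with KCl. Rpl22 and its paralogue Rpl22l1 had log2 fold changes of 0.96 ± 0.18 and 1.06 ± 0.22, and Rpl36a and Rpl36al had 1.13 ± 0.25 and 1.06 ± 0.23. Rps27, Rps27l and Rps27rt were at 0.97 ± 0.26, 0.99 ± 0.20 and 1.22 ± 0.20. Rpl39 was at 1.01 ± 0.16 and the testis-enriched Rpl39l at 0.76 ± 0.27, and all of these passed. With the slope as a covariate Rpl22, Rpl22l1, Rps27, Rps27l, Rpl36a and Rpl36al did not pass (log2 fold changes of 0.19 to 0.55, adjusted p from 0.051 to 0.4), and Rpl39l turned to −0.17. Rpl39l was at 10.6, 14.4 and 5.8 CPM with KCl and 6.7, 6.3 and 5.1 CPM in conditioned medium, so it overlapped through KCl library 3. It missed the threshold without KCl library 1 (adjusted p = 0.071), KCl library 2 (0.12), conditioned medium library 2 (0.06) or conditioned medium library 3 (0.1). Rpl7 and Rpl7l1 parted, with log2 fold changes of 0.97 ± 0.15 and −0.03 ± 0.07.

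Single libraries showed the same direction at different size. With KCl, libraries 1, 2 and 3 had 78, 76 and 77 of the 83 genes above every conditioned medium library, against 41.1%, 39.9% and 40.3% of all genes. Their median log2 differences over the 83 genes were 0.94, 1.19 and 0.50. With KCl library 3 as the only KCl library, 68 genes rose and 1 fell (22.5% of all genes called higher, with the spread taken from the other groups), and Rps27a and Rpl39l turned to −0.03 and −0.06. Without KCl library 2 the median was 0.76, and without library 3 it was 1.11.

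Against NaCl, the salt control of the same added concentration, most of these genes were also higher with KCl. Here 75 of the 83 genes were higher with KCl, 0 were lower and 8 did not pass (edgeR; DESeq2 gave 76 and 0, and 76 had an unadjusted p under 0.05), and the median log2 fold change was 0.91. Over all genes, 15.4% were called higher and 16.2% lower. Rpl35a had 398, 835 and 229 CPM with KCl and 147 and 121 CPM with NaCl (1.88 ± 0.44, adjusted p = 0.011). Rps14, of the small subunit, had 2220, 3597 and 1140 CPM with KCl and 769.9 and 662 CPM with NaCl (1.71 ± 0.38, adjusted p = 0.009). Rps3 had 1029, 959 and 1002 CPM with KCl and 747 and 657 CPM with NaCl (0.51 ± 0.09, adjusted p = 0.0021). The lowest were Rpl7l1 (−0.08 ± 0.08), Rpl10 (−0.04 ± 0.10) and Rpl7a (0.03 ± 0.10), and Rpl15, picked here after its values were seen, was at 0.16 ± 0.12 (adjusted p = 0.31). These calls rested on the spread shared with other groups: in a fit of the KCl and NaCl libraries alone 0 of the 83 genes passed, where 8 genes passed in all, and without NaCl library 2 the count was 28 (2.49% of all genes higher). With the length slope as a covariate 2 were higher and 0 lower, against 0.827% of all genes higher, with a median of 0.12. Rpl35a then stood at −0.05, Rps14 at −0.08 and Rps3 at 0.32 (adjusted p = 0.16). KCl and NaCl libraries did not overlap in slope, so salt and slope cannot be told apart in this fit.

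With NaCl few of the 83 genes differed from conditioned medium alone, unless the length slope was fitted. Against conditioned medium alone 2 rose, 1 fell and 80 did not pass (edgeR; 5 had an unadjusted p under 0.05), with a median log2 fold change of 0.01. Over all genes, 13.7% were called higher and 14.9% lower. With the length slope as a covariate 37 rose and 3 fell (median 0.23), against 18.4% of all genes higher and 18.9% lower. The slope was 0.112 and 0.177 with NaCl, against 0.042, 0.074 and 0.119 in conditioned medium. Salt and slope thus cannot be fully told apart, and the 37 cannot be read as an effect of NaCl. Rpl15 had 30.6 and 29.4 CPM with NaCl and 47.7, 44.8 and 39.2 CPM in conditioned medium (−0.54 ± 0.12, adjusted p = 0.0034). It was below conditioned medium with both salts. Rpl27, of the large subunit, had 28.6 and 29.0 CPM with NaCl and 21.7, 19.5 and 18.5 CPM in conditioned medium (0.53 ± 0.12, adjusted p = 0.0053). Rpl28, also of the large subunit, had 14.2 and 14.5 CPM with NaCl and 12.4, 10.0 and 9.9 CPM in conditioned medium (0.42 ± 0.12, adjusted p = 0.023). Rpl28 missed the threshold with total counts (adjusted p = 0.062), with no filter (0.064), and without either NaCl library or conditioned medium library 2 or 3 (0.08 to 0.14). Its pseudogene Rpl28-ps1 had a mean of 659.9 counts, against 244 for Rpl28, and with pseudogenes added it was at 0.07 (adjusted p = 0.68). Rpl10a was at −0.32 ± 0.12 (adjusted p = 0.055), Rps27a at −0.28 ± 0.36 and Rpl38 at 0.19 ± 0.34. Rplp1, Rplp2 and Rplp0 were at 0.08 ± 0.34, 0.00 ± 0.38 and 0.04 ± 0.09.

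**Figure D3:**
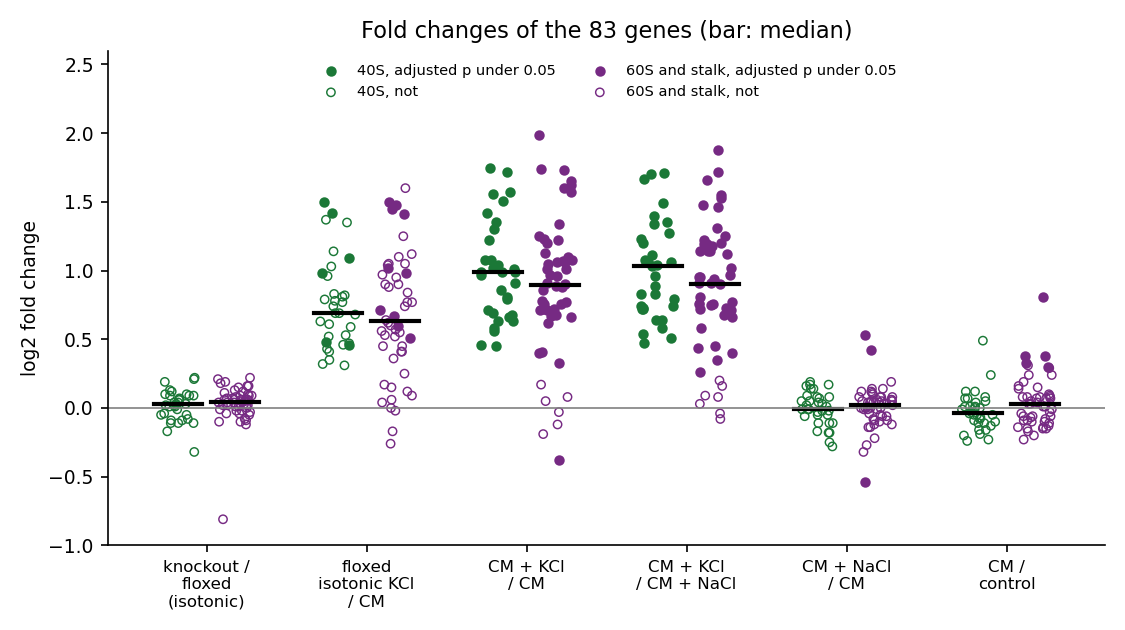
Log2 fold change (vertical axis) of each of the 83 genes in 6 comparisons, with 40S and 60S genes side by side; filled points passed the threshold, open points did not, bars are medians and CM is conditioned medium. With KCl most points are filled and lie above 0 (median 0.96 against CM), while the knockout and NaCl comparisons centre near 0 (medians 0.04 and 0.01).

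Conditioned medium itself changed few ribosomal protein genes relative to most other genes. Against control 5 rose, 0 fell and 78 did not pass (edgeR; DESeq2 called 6 higher and 0 lower, and 7 had an unadjusted p under 0.05), with a median log2 fold change of 0.00. Over all genes, 27.2% were called higher and 26.4% lower. The share of counts was below control in each conditioned medium library, as given above, while TMM factors were 1.03 to 1.06 in conditioned medium and 1.28 to 1.34 in control. Scaled by total counts, the median log2 fold change of all genes shifted by −0.34, and 1 of the 83 rose and 40 fell. All 5 genes that rose are of the large subunit. Rpl24, of the subunit interface, had 128, 122 and 113 CPM in conditioned medium and 68.9, 75.5 and 65.8 CPM in control (0.81 ± 0.20, adjusted p = 0.0056). Rpl7l1 had 139, 136 and 125 CPM in conditioned medium and 104, 105 and 103 CPM in control (0.38 ± 0.07, adjusted p = 0.00042). Neither overlapped between the groups. Rpl27 (0.38 ± 0.11), Rpl10a (0.33 ± 0.10) and Rpl10 (0.30 ± 0.09) were the others (Rpl10a picked after its values were seen), and scaled by total counts Rpl27 and Rpl7l1 stood at 0.04 each and Rpl10 at −0.04. Rpl27 missed the threshold without control library 2 (adjusted p = 0.071) or conditioned medium library 1 (0.056), and Rpl10 without control library 1 (0.057) or with no filter (0.055). Rps27a was at 0.49 ± 0.32 (adjusted p = 0.22), and the lowest were Rps28 (−0.24 ± 0.21), Rpl41 (−0.23 ± 0.28) and Rpl36a (−0.20 ± 0.25).

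In isotonic KCl the floxed cells stood higher than C57BL/6J cells in conditioned medium alone, a comparison in which strain and medium cannot be told apart. Of the 83 genes 16 were higher, 0 were lower and 67 did not pass (edgeR, a fit of all 17 libraries; 64 had an unadjusted p under 0.05), with a median log2 fold change of 0.68. Over all 14676 genes tested, 8.20% were called higher and 7.09% lower. Rplp1 had 611, 3074 and 1866 CPM in floxed libraries 1, 2 and 3, against 698, 648 and 605 CPM in conditioned medium (1.48 ± 0.46, adjusted p = 0.041). Rps28, of the small subunit, had 21.2, 73.9 and 60.8 CPM in the floxed libraries and 21.8, 16.7 and 18.5 CPM in conditioned medium (1.42 ± 0.36, adjusted p = 0.017). Rps28 was picked after its values were seen. Floxed library 1 was within the conditioned medium range in both, and the other 2 were far above it.

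That split held over the list. Floxed library 1 had 4 of the 83 genes above and 40 below every conditioned medium library (median log2 difference −0.10), whereas libraries 2 and 3 had 79 genes above each (medians 1.12 and 0.76). Of all genes, 34.5%, 40.2% and 39.6% were above every conditioned medium library in floxed libraries 1, 2 and 3. Without floxed library 1, 70 of the 83 genes were higher, with a median of 0.95 and 19.4% of all genes called higher. The count was 0 without floxed library 2, floxed library 3, conditioned medium library 2 or conditioned medium library 3, and 2 without conditioned medium library 1. Rpl35a, the gene with the largest difference, had 112, 691 and 354 CPM in the floxed libraries and 137, 124 and 113 CPM in conditioned medium (1.60 ± 0.52) and missed the threshold. The lowest genes were again Rpl15 (−0.26 ± 0.14), Rpl10a (−0.17 ± 0.12) and Rpl3 (−0.02 ± 0.09), and none of them passed.

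Between knockout and floxed cells in isotonic KCl no ribosomal protein gene passed the test, unless the length slope was fitted. Without it, 0 of the 83 genes were higher and 0 lower by edgeR and by DESeq2, and 0 had an unadjusted p under 0.05. Over all 12782 genes tested, 0.00782% were called higher and 0.00782% lower, which is 1 gene each: Lyz1 (2.38 on the log2 scale) and Kcnj2 (−2.64). Rplp1 had 2258, 2096 and 1103 CPM in knockout libraries and 611, 3074 and 1866 CPM in floxed libraries (−0.04 ± 0.55). Rps3 had 1107, 1115 and 835 CPM in knockout and 609.7, 1046 and 959 CPM in floxed libraries (0.21 ± 0.23), and Rps7 had 120, 143 and 112 CPM in knockout and 118, 187 and 159 CPM in floxed libraries (−0.32 ± 0.19). The ranges overlapped in each of these genes. The median log2 fold change was 0.04, and the median SE of the 83 was 0.33, against 0.16 for KCl over conditioned medium. Without floxed library 1 the median was −0.24 and without floxed library 2 it was 0.36, with 0 genes called in either case. With the length slope as a covariate 0 were higher and 14 lower (median −0.07), against 3.48% of all genes higher and 4.61% lower, and Rplp1 was at −0.19 (adjusted p = 0.013). With the length curve as an offset 0 were called. Knockout libraries 1, 2 and 3 had 78, 80 and 70 of the 83 genes above every conditioned medium library, against 40.2%, 39.9% and 38.3% of all genes. Their median log2 differences over the 83 genes were 0.97, 0.91 and 0.35.

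Among ribosomal protein genes the median increase with KCl was higher in those with shorter coding sequences. In the 31 genes with a coding sequence of at most 400 bases the median log2 fold change was 1.04 and all 31 rose, and in the 31 of 400 to 600 bases it was 0.90 and all 31 rose. In the 13 of 600 to 800 bases it was 0.69, with 8 higher and 1 lower, and in the 8 above 800 bases it was 0.51, with 6 higher. Across the 83 genes, Spearman's rho of fold change with coding length was −0.47 with KCl, −0.54 in isotonic KCl floxed cells against conditioned medium, −0.18 with NaCl and 0.37 in conditioned medium against control. These are descriptions over genes that share libraries. Exceptions ran both ways: Rpl14 and Rpl23a were picked after their values were seen. Rpl14 has a coding sequence of 651 bases and a log2 fold change of 1.60, and Rpl23a, with 468 bases, was at 0.33.

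**Figure D4:**
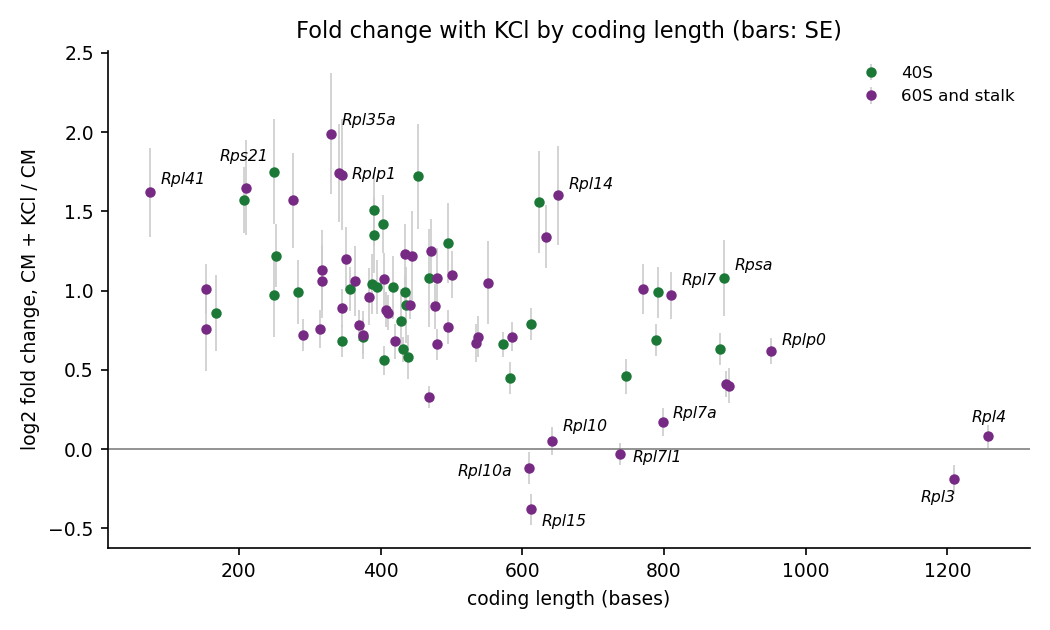
Log2 fold change of KCl over conditioned medium alone (CM; vertical axis, bars are SE) against coding length in bases (horizontal axis) for the 83 genes, 40S and 60S apart. Genes of at most 600 bases all lie above 0, and the genes near or below 0, Rpl15, Rpl3, Rpl10a, Rpl7l1, Rpl10, Rpl4 and Rpl7a, are longer.

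Short transcripts of other genes also stood higher with KCl. Among other genes with an annotated transcript of at most 600 bases the median log2 fold change against conditioned medium was 0.62 (726 genes), from 600 to 1000 bases it was 0.29 (1220 genes), and from 1000 to 1500 bases it was 0.10 (1660 genes). Ribosomal protein genes of these 3 classes had medians of 1.09, 0.86 and 0.77 (24, 41 and 11 genes). Their medians were thus above those of other genes of like length in each class. With NaCl the medians of other genes in these classes were −0.01, −0.10 and −0.09, against 0.05, 0.01 and −0.04 in the ribosomal protein genes.

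The length slope gives the same property by library. It is the change in log2 level, relative to the mean over libraries, for each doubling of transcript length, computed from other genes alone. It was −0.212, −0.183 and −0.020 in knockout, 0.159, −0.237 and −0.131 in floxed and −0.098, −0.139 and 0.028 in KCl libraries. It was 0.112 and 0.177 with NaCl, 0.042, 0.074 and 0.119 in conditioned medium and 0.088, 0.073 and 0.146 in control. In each of the 6 groups the order of the libraries by slope was the reverse of their order by share. Control, conditioned medium and NaCl libraries all had slopes above 0, and control held the larger shares. These shares are of unscaled counts. With TMM scaling the summed levels of the 83 genes overlapped between the groups. Control libraries summed to 22020, 23570 and 20540 CPM. Those of conditioned medium summed to 23060, 21620 and 20180 CPM, and those of NaCl to 22930 and 20790 CPM. With the slope as a covariate, 46 of the 83 genes rose and 1 fell with KCl against conditioned medium (median 0.36, 19% of all genes called higher), and with a length curve as an offset 68 rose and 2 fell (median 0.53, 28.7%). Against NaCl the curve left 58 higher and 2 lower (median 0.43), against 14.6% of all genes higher and 12% lower. KCl libraries did not overlap NaCl or conditioned medium libraries in slope, so these fits cannot tell a difference by salt from one by length. Whether RNA quality, library preparation or the cells themselves set the slope was not tested.

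**Figure D5:**
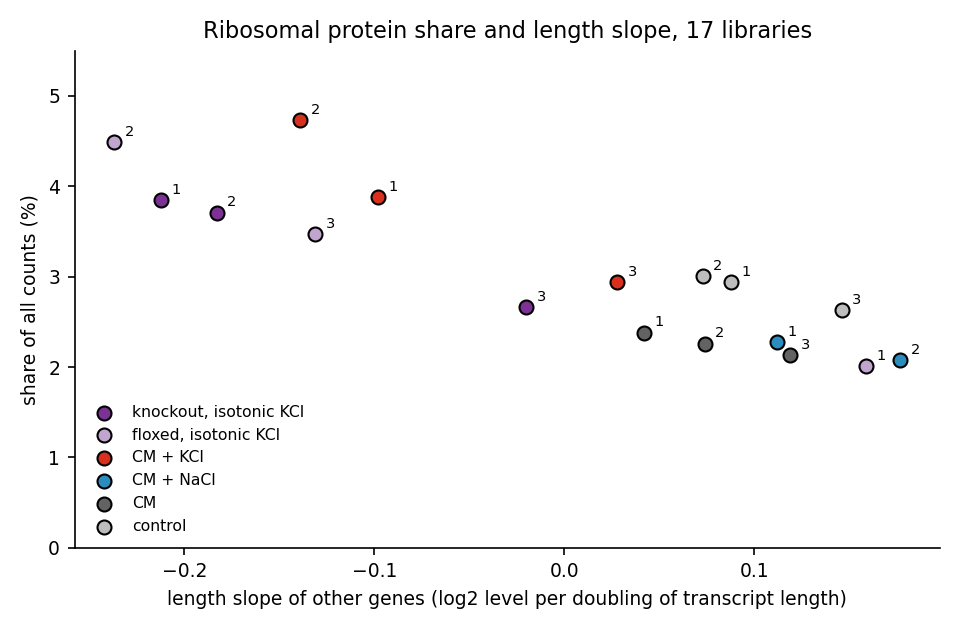
Share of all counts in the 83 genes (percent, vertical axis) against the length slope of other genes (log2 level per doubling of transcript length, horizontal axis) in the 17 libraries, with library numbers beside the points; CM is conditioned medium. Shares run from 2.01% at a slope of 0.159 to 4.49% at −0.237 in the floxed group alone, and KCl library 2 has the largest share (4.73%).

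The counts for other genes of the translation machinery are to be read against all genes, of which 26.6% rose and 27.4% fell with KCl, and 27.2% rose and 26.4% fell in conditioned medium against control. Of 27 genes outside the rule that are part of the ribosome or carry a TOP start, 18 rose and 1 fell with KCl against conditioned medium (median 0.46; 66.7% higher), and 6 rose and 2 fell in conditioned medium against control (median 0.04; 22.2% higher, below the share of all genes). Rack1, a scaffold bound to the small subunit, had a mean of 1190 CPM with KCl and 726 CPM in conditioned medium (0.73), and Pabpc1, the poly(A)-binding protein, had 1010 CPM with KCl and 635 CPM in conditioned medium (0.68). Ccng1, of the same list, fell, with means of 95.2 CPM with KCl and 139 CPM in conditioned medium (−0.54). Larp1, the TOP-binding protein, rose in conditioned medium, with means of 199 CPM there and 84.2 CPM in control (1.26 on the log2 scale). Of 13 tested host genes of small nucleolar RNAs, noncoding RNAs with TOP starts, 10 rose and 1 fell with KCl (median 1.15). Gas5 had means of 150 CPM with KCl and 73.5 CPM in conditioned medium (1.04).

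Initiation and assembly factors rose mostly in conditioned medium itself. Of 27 initiation factors 23 rose and 0 fell in conditioned medium against control (median 0.60), where 5 of 83 ribosomal protein genes rose. Eif4g2 had means of 2260 CPM in conditioned medium and 761 CPM in control (1.59), and Eif4e, which binds the mRNA cap, had 148 CPM in conditioned medium and 73.5 CPM in control (1.03). With KCl 15 of the 27 rose and 3 fell (median 0.27). Eif5 and Eif1, which act in start codon choice, rose, at 1.08 and 1.14 on the log2 scale. Eif2b3 fell, with means of 6.84 CPM with KCl and 21.3 CPM in conditioned medium (−1.63). Of 45 nucleolar assembly factors 32 rose and 1 fell in conditioned medium against control (median 0.50), while with KCl 12 rose and 11 fell (median −0.04). Rrs1, an assembly factor of the large subunit, had means of 80.2 CPM in conditioned medium and 30.8 CPM in control (1.40).

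With KCl the lists of this paragraph had shares nearer to those of all genes (26.6% higher and 27.4% lower) than the TOP list had. Of 15 RNA polymerase I genes 5 rose and 5 fell with KCl (33.3% each way, median 0.18). Of 31 tested regulators of mTORC1 and MYC 13 rose and 9 fell with KCl (41.9% higher, median 0.15), and 13 rose and 7 fell in conditioned medium against control (median 0.22). The mTORC1 inhibitor Deptor had means of 1.99 CPM in conditioned medium and 19.3 CPM in control (−3.25). Of 20 tested sensors of stalled ribosomes 5 rose and 5 fell with KCl (25% each way, median −0.02), and of 16 chaperones and importers of ribosomal proteins 6 rose and 3 fell (37.5% higher, median 0.17). In conditioned medium against control, 27.2% of all genes rose. There 11 of the 20 sensors rose and 1 fell (55% higher, median 0.30). Of the 16 chaperones 7 rose and 1 fell (43.8% higher), and of the 15 RNA polymerase I genes 3 rose and 1 fell (20% higher).

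Nuclear genes of the respiratory chain, whose transcripts are also short (median 633.5 bases), rose with KCl in 48 of 56 cases (median 0.77), with 0 lower. That is 85.7% higher, against 26.6% of all genes. Against NaCl 55 of the 56 were higher with KCl (median 0.83), and 0 lower, where 15.4% of all genes were higher. These calls too rested on the spread shared with other groups. In a fit of the KCl and NaCl libraries alone only 1 gene of the whole table was higher. With the length slope as a covariate 0.827% of all genes were. Mitochondrial ribosomal protein genes, with a median transcript of 1224.5 bases, rose in 29 and fell in 12 of 78 cases with KCl against conditioned medium (median 0.22). That is 37.2% higher, where 26.6% of all genes rose and 27.4% fell. Between knockout and floxed cells 0 genes of any of these lists passed, with medians from −0.12 to 0.10.

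Many of the 83 genes share sequence with processed pseudogenes, and reads can be split between copies in counting. The share of 50-base windows found in no other annotated gene ran from 4.9% in Rpl35 to 100% in Rpl39l. In 10 of the 83 genes the annotated pseudogenes of the same name held more counts than the gene. Rps6 had a mean of 263 counts over the 17 libraries and Rps6-ps4 had 1280, and Rpl17 had 539.5 against 4717 for Rpl17-ps10. Levels of such genes are therefore uncertain, and Rpl24 also overlaps Gm28037 on the same strand. Among the 54 genes with at least 50% unique windows, 51 rose and 1 fell with KCl against conditioned medium (median 0.99), and with pseudogenes of the same name added 77 of the 83 rose and 1 fell (median 0.92).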

How the data were processed

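Raw counts per Ensembl mouse gene were used as deposited by the authors. The sources used here do not give the aligner, counting program, genome build, strand setting or RNA selection. The submitters' processing notes name DESeq2 1.30.1 without saying for what. Groups came from the strain and treatment labels. The members, the other gene lists and the naming rule were chosen with earlier results of these data known. Symbols, coding lengths and median transcript lengths came from GENCODE M21 (GRCm38), and start sequences from RefSeq (GRCm38.p6), which held 63 of the 83 genes.

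The main test was edgeR's quasi-likelihood test (edgeR 4.0.16 under R 4.3.3; TMM, default low-count filter, Benjamini-Hochberg over all genes tested, threshold 0.05). The 11 C57BL/6J libraries were fitted together, the 6 isotonic libraries alone, and all 17 for floxed against conditioned medium. All 83 members passed each filter. The script was tested on simulated data. SE is that of the log2 fold change, and summed member levels have no test. The slope used other genes with a mean of at least 20 counts and a prior count of 1.

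Named were, per comparison, the 3 highest and 3 lowest members with a mean of at least 10 CPM, plus a set list of stalk, key and paralogue genes, and up to 3 called genes of each other list by smallest p. Alternatives were DESeq2 1.42.0, RLE factors, total counts, scaling without the members, no filter and a stricter one (a mean of 20 counts, and 1 CPM in at least 3 libraries), only the 2 groups compared, a replicate block, 2 length corrections, a member minimum of 100 counts, other denominators, and leaving out each library. Pseudogene sums, members with at least 50% unique windows and KCl library 3 alone were chosen after seeing the data. Library totals were 13503869 to 19391623 counts; the lowest member, Rps27, had a mean of 59.53 counts, and 16 members had under 500.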

Additional observations from a re-analysis of the deposited data

Results flagged for a closer look

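The effects of the 2 salts differed by a direct test: 75 of the 83 ribosomal protein genes were higher with KCl than with NaCl, both in conditioned medium, by the edgeR test of KCl against NaCl, where 15.4% of all genes were called higher. The count was 0 in a fit of the 2 groups alone, 28 without NaCl library 2 and 2 with the length slope as a covariate, under which Rpl35a, Rps14 and Rplp2 stood at −0.05, −0.08 and −0.11. Against conditioned medium alone, 76 rose with KCl and 2 with NaCl, and with the slope as a covariate 46 rose with KCl and 37 with NaCl. The length slope was −0.139 to 0.028 in KCl libraries and 0.112 to 0.177 in NaCl libraries. These ranges do not overlap, so salt and slope cannot be told apart in the fits with the slope.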

How the results depend on the processing

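KCl against conditioned medium gave 75 to 76 genes higher and 1 to 2 lower when any 1 library was left out, and 76 and 1 with the replicate block. Replicate numbers fell short of the mark for pairing, every same-number pair over 0.1: among C57BL/6J libraries 7 of 15 such pairs were over it, against 8 of 30 with different numbers, and among isotonic libraries 1 of 3, against 4 of 6. Libraries 3 of control, conditioned medium and KCl did deviate together (r = 0.24, 0.42 and 0.29 over genes). Total counts gave 4 lower, the length curve 2 lower and the length slope 46 higher. Rps27a and Rpl39l turned to −0.17 each with the slope, and to −0.03 and −0.06 with KCl library 3 alone.

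KCl against NaCl gave 28 (without NaCl library 2) to 76 higher with 1 library left out, 0 with only the 2 groups, 2 with the slope, and 2 lower with the curve. With the slope Rps14 (−0.08), Rplp2 (−0.11), Rpl35a (−0.05), Rps27a (−0.41), Rpsa (−0.05), Rpl22l1 (−0.09), Rps27l (−0.01), Rpl36a (−0.04) and Rpl36al (−0.05) turned.

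NaCl against conditioned medium gave 1 to 2 higher with 1 library left out, 1 higher and 2 lower with total counts or pseudogenes added, 1 higher with no filter, 2 lower with the stricter filter, 4 and 4 with only the 2 groups, 3 lower with the replicate block, 37 higher and 3 lower with the slope and 5 higher with the curve. Conditioned medium against control gave 3 to 5 higher with 1 library left out, 1 higher and 40 lower with total counts, 1 lower with no filter, 13 and 2 with only the 2 groups, 10 and 17 with the slope, 9 higher with the curve and 2 among genes with at least 50% unique windows. Rpl10 turned to −0.04 with total counts there.

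Floxed isotonic cells against conditioned medium gave 0 to 70 higher with 1 library left out, 48 with DESeq2, 24 with the replicate block, 7 higher and 1 lower with total counts, 6 with no filter, 0 with only the 2 groups, and 1 lower with the slope and with the curve. Knockout against floxed gave 14 lower with the slope. Shares with pseudogenes added were 2.35% with NaCl, 2.44% in conditioned medium and 3.09% in control. The cause of these changes was not tested. With 2 or 3 libraries a group, and unlike libraries within the KCl media, single genes and counts over the list are both uncertain. The genes of the list share the same libraries, so their number does not make up for this. In floxed cells the count over the list ran from 0 to 70 with 1 library left out.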
